A study of Mus musculus with 4 samples.

Results

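Collagens are secreted proteins built from 3 chains wound into a triple helix, and each chain has its own gene. Fibrillar types form the tensile fibres of connective tissue, type IV forms the sheet-like network of basement membranes, and other types decorate fibrils, form beaded filaments or span the cell membrane. In the testis a basement membrane containing type IV collagen lies between the seminiferous tubule and the peritubular cells, and fibrillar collagens fill the interstitium and the outer capsule. The collagen genes described here are those whose symbol in the deposited count table has the form Col, a number, the letter a and a second number. The pattern took 43 of 22609 genes: 11 fibrillar, 6 of type IV and 26 of other types. All 43 matched 1 gene of the GENCODE M1 annotation of NCBIM37 (mm9).

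Read counts came from 4 libraries made from polyadenylated RNA of whole mouse testes at postnatal day 3, on a mostly C57BL/6J background. Both groups came from matings of AmhCre mice with carriers of 1 TRαAMI allele of thyroid hormone receptor alpha. In the wild-type group (2 libraries) the receptor alpha 1 was labelled wild type, and in the mutant group (2 libraries) it was labelled dominant negative, a form that blocks the normal receptor. AmhCre drives Cre recombinase from the promoter of the anti-Müllerian hormone gene, and the series' title places the mutation in Sertoli cells alone. The labels do not say whether wild-type animals carried Cre, whether a library is 1 animal or a pool, or that replicates are separate animals, so the p-values speak of the spread among these 4 libraries and no more. In whole tissue, fewer cells of a type and less RNA per cell cannot be told apart.

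Values are given for replicate 1 and then replicate 2 of each pair. Gene counts summed to between 10230512 and 15636832 per library. Marker lists of Sertoli, Leydig, germ, peritubular and endothelial cells were all read in every library; 2 of 6 Sertoli markers were called lower and none of the Leydig, peritubular or endothelial markers was called. Skeletal muscle markers were read as well: 7 of 8 were called higher in mutant testes, and their summed level was 15.2 and 13.9 CPM (counts scaled to library size) in the wild-type pair but 2183 and 560.4 CPM in the mutant pair. All 5 germ cell markers were called lower, all 4 mesothelium markers higher (summed levels 153 and 189 CPM against 301 and 379 CPM), 3 of 5 macrophage markers higher, 3 of 5 adipocyte markers lower, and of the tendon list 1 marker higher and 1 lower. Of 8 fibroblast and stroma markers outside the collagens, Fn1, the gene of the matrix protein fibronectin, was called higher and 7 were not called, with summed levels of 2509.8 and 2182 CPM in the wild-type pair and 2785 and 3078 CPM in the mutant pair. The part of these tissues in the collagen values was not tested.

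As a family, collagen transcripts took a larger share of the library in mutant testes. The 43 genes made up 1.27% and 0.917% of gene counts in the wild-type pair and 1.58% and 1.55% in the mutant pair. Both mutant shares were above both wild-type shares, and 2 against 2 libraries cannot reach an exact two-sided permutation p below 0.333. Of 40 collagen genes that passed the filter on low counts, 6 (15%) were higher in mutant testes by edgeR's quasi-likelihood test at an adjusted p below 0.05, against 3.15% of all 14788 tested genes. DESeq2, run without that filter on all 43, called 11 higher (against 3.81% of all genes it gave an adjusted p). Of the 40, limma voom called 5 higher (against 2.09%), and 21 were higher at an unadjusted edgeR p below 0.05 (against 12.9%). None was lower by edgeR's test at an adjusted p below 0.05, against 2.52% of all tested genes. The other lower calls were 1 at an unadjusted p below 0.05 (12.6% of all tested genes), 1 from DESeq2 (2.54%) and 0 from limma voom (1.84%). Both mutant libraries lay above both wild-type libraries in 25 of the 40 (62.5%, against 28.3% of all tested genes) and below them in 2 (against 29.0%). The log2 fold change, mutant minus wild type throughout, was positive for 35 and negative for 5, with a median of 0.34 against -0.01 over all tested genes. For the 8 fibroblast and stroma markers outside the collagens the median was 0.31, so a shift of this size was not particular to collagens.

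Counts and medians by class are set beside these shares. Over all tested genes edgeR called 3.15% higher and 2.52% lower, and 49.2% had a positive fold change. At an unadjusted p below 0.05 the shares were 12.9% higher and 12.6% lower. DESeq2 called 3.81% higher and 2.54% lower of the genes it gave an adjusted p. Among 11 fibrillar genes 2 rose and all 11 had positive fold changes, with a median of 0.59. Among 6 type IV genes edgeR called none, 5 were positive and 1 negative, and the median was 0.19. At an unadjusted p below 0.05 there were 2 type IV genes higher and 1 lower, and DESeq2 called the same numbers while limma voom called 0. Among 23 tested genes of other types 4 rose, 19 were positive and 4 negative, and the median was 0.34. No test compared the classes with each other as sets. The summed level per kilobase of Col1a1, Col1a2 and Col3a1 over that of Col4a1 and Col4a2 was 8.36 and 6.15 in the wild-type pair and 8.74 and 8.46 in the mutant pair. The mutant libraries were the higher pair by a narrow margin, and the exact two-sided permutation p was 0.333, the smallest possible.

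**Figure D1:**
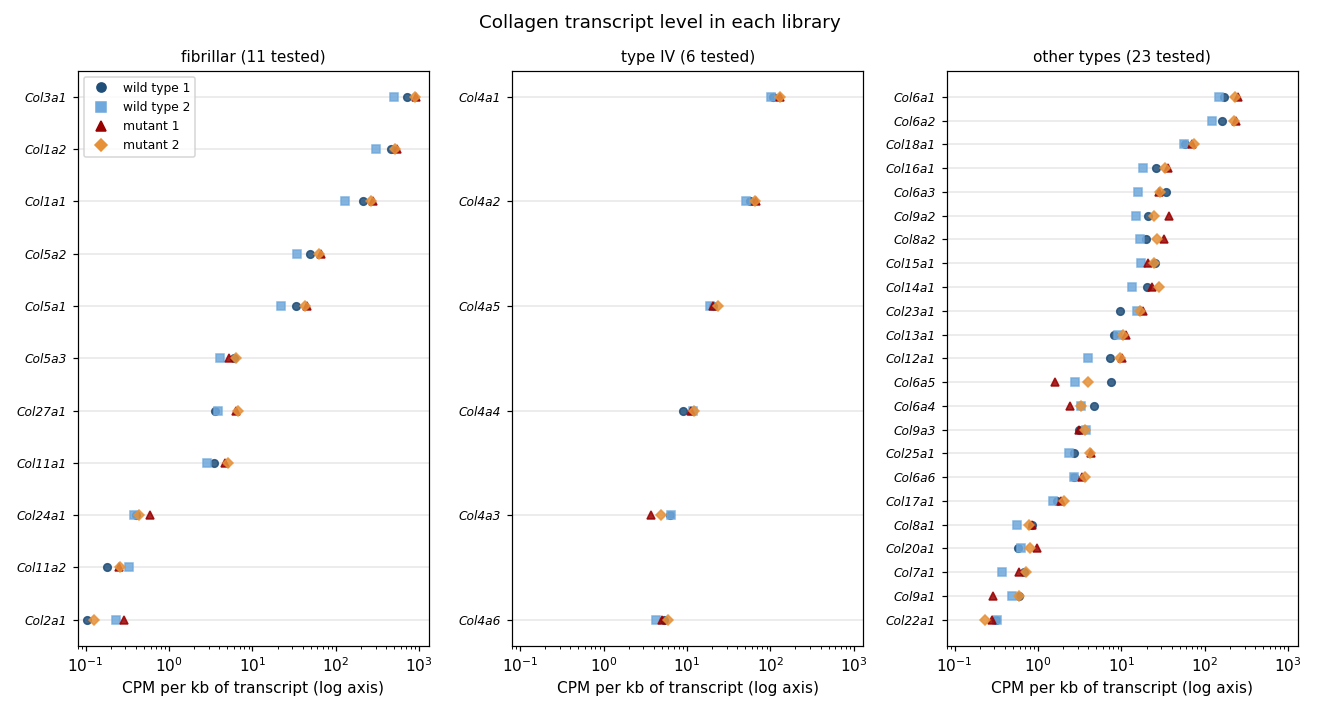
Level of each tested collagen gene in CPM per kilobase of transcript (log axis), 1 point per library, for fibrillar, type IV and other types. Col3a1, Col1a2 and Col1a1 lead, and wild-type replicate 2 is the lowest library for the leading fibrillar genes.

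The fibrillar genes of types I and III were the most abundant collagen transcripts. Levels between genes are compared as CPM per kilobase of the GENCODE M1 transcript with the longest coding sequence. Col3a1, the single chain of type III collagen of pliable tissues, stood at 606 ± 146 in the wild-type pair and 912 ± 18.6 in mutant testes on that scale (SD, n = 2 each). Col1a2 followed at 383 ± 115 and 525 ± 22.2, and Col1a1 at 171 ± 60.7 and 272 ± 8.06. These encode the alpha 2 and alpha 1 chains of type I collagen, the main fibre of connective tissue. Over all 4 libraries the next in order were Col6a1, Col6a2 and Col4a1. At the other end Col2a1, the collagen of cartilage, stood at 0.167 ± 0.0901 and 0.205 ± 0.113 CPM per kilobase. Of 8 cartilage and bone markers 3 passed the filter and none was called. Among them Acan, the gene of the cartilage proteoglycan aggrecan, measured 2.70 and 3.72 CPM in the wild-type pair and 5.91 and 9.13 CPM in the mutant pair, with both mutant libraries higher (log2 fold change 1.28 ± 0.32, edgeR adjusted p = 0.0566). Hapln1 measured 26.3 and 38.6 CPM and then 27.1 and 31.5 CPM, with overlapping groups (-0.13 ± 0.19). Chad overlapped as well (0.22 ± 0.51). The summed level of the whole list also overlapped, at 31.7 and 44.2 CPM and then 35.9 and 42.7 CPM. The part of cartilage in the collagen values was not tested.

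Col1a1 (chromosome 11, 94797538 to 94814356, plus strand, mm9) measured 1270.1 and 761 CPM in the wild-type pair and 1646 and 1578 CPM in the mutant pair. Both mutant libraries were above both wild-type libraries, but the wild-type pair lay much further apart than the mutant pair. Its log2 fold change was 0.67 ± 0.21 (SE) and was not called (edgeR adjusted p = 0.0964). Col1a2 measured 2482 and 1612 CPM in the wild-type pair and 2890.1 and 2723 CPM in the mutant pair, with a log2 fold change of 0.45 ± 0.19 (edgeR adjusted p = 0.187). Col3a1 measured 3948 and 2797 CPM in the wild-type pair and 5146 and 4999 CPM in the mutant pair, with a log2 fold change of 0.59 ± 0.18 (edgeR adjusted p = 0.094). All 3 genes had the same order of libraries, with wild-type replicate 2 lowest. Without wild-type replicate 1 they stood at 1.08, 0.80 and 0.86 and were called (edgeR adjusted p = 0.0324, 0.0441 and 0.0427). Without wild-type replicate 2 they stood at 0.34, 0.17 and 0.36 and were not called (edgeR adjusted p = 0.121, 0.348 and 0.131). Col1a1 was also called without mutant replicate 2, at 0.69 (edgeR adjusted p = 0.0311).

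Type V collagen nucleates type I fibrils and sets their width. Its chain gene Col5a1 measured 279 and 184 CPM in the wild-type pair and 382 and 357 CPM in the mutant pair (log2 fold change 0.67 ± 0.17, edgeR adjusted p = 0.0579). Its partner Col5a2 measured 324 and 227 CPM and then 437 and 416 CPM in the same order (0.63 ± 0.15, edgeR adjusted p = 0.0525). Neither was called, and in both genes the mutant libraries were the higher pair. Col5a1 was called with the replicate block, and Col5a2 with DESeq2, median-ratio size factors and the replicate block, and both without either mutant library (0.59 to 0.72) or without wild-type replicate 1, where they stood at 1.00 and 0.91. Col5a3, another chain of the type with a narrower distribution, measured 36.5 and 25.1 CPM in the wild-type pair and 32.3 and 39.0 CPM in the mutant pair, so its groups overlapped (0.21 ± 0.19). The ratio of Col5a3 to Col5a1 per kilobase was 0.180 and 0.187 in the wild-type pair and 0.116 and 0.150 in the mutant pair.

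The fibrillar genes that rose were Col27a1 and Col11a1, both far scarcer than the chains of types I, III and V named above. Col27a1 (chromosome 4, 62875038 to 62996025, plus strand), a fibrillar chain best known from cartilage, measured 26.7 and 29.5 CPM in the wild-type pair and 48.4 and 51.4 CPM in the mutant pair. The pairs were tight and well separated, and the gene rose 1.78-fold (log2 fold change 0.83 ± 0.12, edgeR adjusted p = 0.0116), the smallest adjusted p of the family. Col11a1 (chromosome 3, 113733458 to 113923636, plus strand), which co-assembles with type II and type V chains, measured 26.7 and 22.0 CPM and then 35.9 and 39.4 CPM in the same order. It rose 1.54-fold (0.63 ± 0.14, edgeR adjusted p = 0.042). Col27a1 lost its call without wild-type replicate 1, at 0.76 (edgeR adjusted p = 0.0812). Col11a1 was not called with wild-type replicate 1, wild-type replicate 2 or mutant replicate 2 left out, with values of 0.50 to 0.78 and edgeR adjusted p of 0.0801 to 0.137, nor with the replicate block (edgeR adjusted p = 0.0566) or without the filter on low counts (edgeR adjusted p = 0.057). Its usual partner Col2a1 summed to 19 counts over the wild-type libraries and 26 over the mutant libraries (ratio 1.20, exact 95% interval 0.640 to 2.30, counting error only). The remaining fibrillar genes, Col24a1 and Col11a2, measured 1.05 to 4.19 CPM and were not called.

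**Figure D2:**
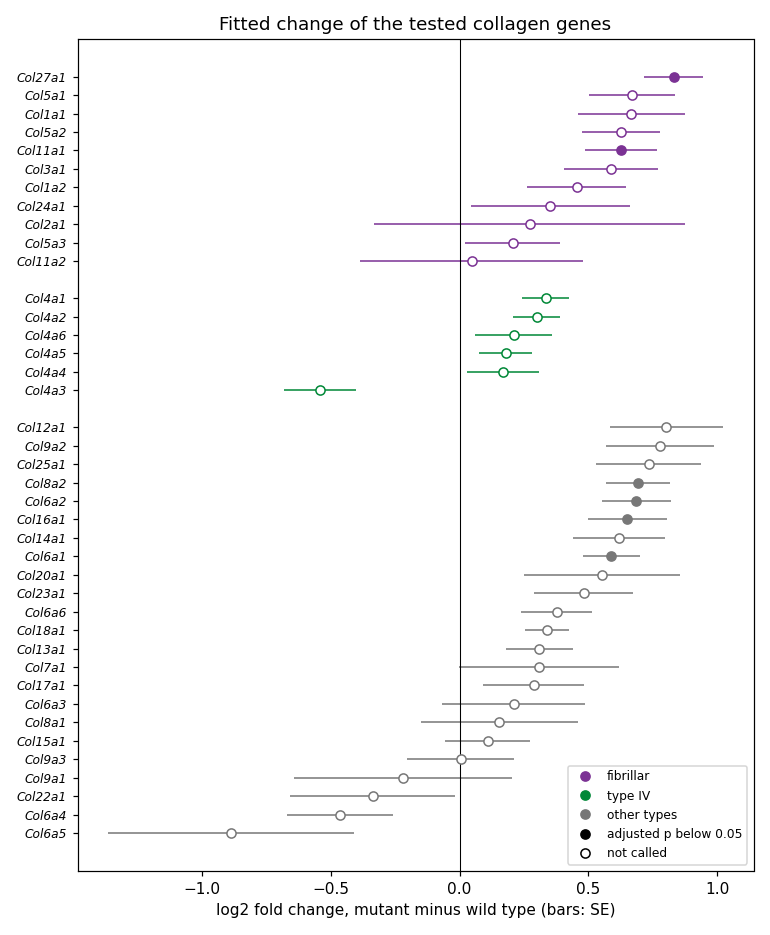
Log2 fold change of each of the 40 tested collagen genes (x axis, mutant minus wild type) with its SE, grouped as fibrillar, type IV and other types. Filled points mark the 6 genes with an adjusted p below 0.05, all to the right of 0.

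The type IV chains assemble as 3 networks, and their genes lie in head-to-head pairs. Col4a1 and Col4a2 encode the chains found in nearly every basement membrane. In the annotation the genes point away from each other on chromosome 8 and overlap by 22 bases at their starts. Promoter windows of 250 bases before to 50 after each RefSeq start (GRCm38.p6) matched 35 of the 43 collagen genes by symbol, 38 windows in all. Those of Col4a1 and Col4a2 share 78 bases. They are shown with Col4a4, whose start lies 72 bases from that of Col4a3 in mm9, because the chain ratio described below was lower in both mutant libraries for that pair. Windows of Col27a1, Col11a1 and Col6a1 stand for the genes that rose. These were chosen after the values were seen. Capitals mark matches, on either strand, to AGGTCA (the half-site bound by thyroid hormone receptors), GGGCGG (GC box), CCAAT and TATAAA, and neighbouring GC boxes may overlap.
Col4a1 promoter window, chr8:11312777-11313076, minus strand: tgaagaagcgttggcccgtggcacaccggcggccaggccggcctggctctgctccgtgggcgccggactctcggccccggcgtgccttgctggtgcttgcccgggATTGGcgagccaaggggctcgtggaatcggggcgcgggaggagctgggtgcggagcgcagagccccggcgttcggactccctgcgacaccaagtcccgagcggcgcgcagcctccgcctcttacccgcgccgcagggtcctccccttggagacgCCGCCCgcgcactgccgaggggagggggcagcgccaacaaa
Col4a2 promoter window, chr8:11312555-11312854, plus strand: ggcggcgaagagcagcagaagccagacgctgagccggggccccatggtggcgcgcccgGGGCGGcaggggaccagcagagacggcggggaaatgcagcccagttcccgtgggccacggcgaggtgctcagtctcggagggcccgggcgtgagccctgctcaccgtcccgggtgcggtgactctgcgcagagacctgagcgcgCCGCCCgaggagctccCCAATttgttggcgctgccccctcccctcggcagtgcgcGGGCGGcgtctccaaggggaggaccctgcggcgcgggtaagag
Col4a4 promoter window, chr1:82586800-82587099, minus strand: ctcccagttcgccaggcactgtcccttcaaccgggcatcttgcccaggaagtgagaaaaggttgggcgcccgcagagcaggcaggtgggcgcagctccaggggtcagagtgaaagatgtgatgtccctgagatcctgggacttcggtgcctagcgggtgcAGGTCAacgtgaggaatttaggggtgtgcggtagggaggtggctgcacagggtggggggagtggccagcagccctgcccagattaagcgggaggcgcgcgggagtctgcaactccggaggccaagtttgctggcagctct
Col27a1 promoter window, chr4:63215162-63215461, plus strand: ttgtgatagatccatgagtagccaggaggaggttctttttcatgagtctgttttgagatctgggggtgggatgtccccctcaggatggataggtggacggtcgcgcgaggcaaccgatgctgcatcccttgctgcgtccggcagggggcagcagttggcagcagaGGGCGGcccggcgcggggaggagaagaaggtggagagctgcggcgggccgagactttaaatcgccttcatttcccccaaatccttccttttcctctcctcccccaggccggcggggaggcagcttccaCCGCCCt
Col11a1 promoter window, chr3:114030290-114030589, plus strand: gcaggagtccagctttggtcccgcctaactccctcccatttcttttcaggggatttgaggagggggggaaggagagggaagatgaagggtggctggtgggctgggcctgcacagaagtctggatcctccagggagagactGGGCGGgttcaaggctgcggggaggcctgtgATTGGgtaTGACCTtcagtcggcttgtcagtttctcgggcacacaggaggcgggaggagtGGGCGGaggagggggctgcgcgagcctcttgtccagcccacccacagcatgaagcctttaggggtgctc
Col6a1 promoter window, chr10:76725995-76726294, minus strand: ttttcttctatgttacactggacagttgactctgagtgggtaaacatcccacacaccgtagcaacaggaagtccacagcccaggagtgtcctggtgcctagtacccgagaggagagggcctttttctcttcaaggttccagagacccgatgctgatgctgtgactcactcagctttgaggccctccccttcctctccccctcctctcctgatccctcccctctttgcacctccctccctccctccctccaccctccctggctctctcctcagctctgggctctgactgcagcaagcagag

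The half-site AGGTCA was found in 8 of the 38 collagen windows (21.1%) and in 16.3% of all 32851 promoter windows of the same length. Of the genes that rose, Col11a1 holds it, and so does the window of Col4a4, which was not called. The direct repeat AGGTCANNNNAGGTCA, to which the receptor binds with a partner, was in 0 collagen windows and in 0.0152% of all windows. GC boxes were in 23 collagen windows (60.5%, against 35.7% of all windows), CCAAT in 13 (34.2%, against 37.4%) and TATAAA in 5 (13.2%, against 13.6%). The median GC content was 59.8% in collagen windows and 52.7% in all windows. A match describes letters only.

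Col4a1 (chromosome 8, 11198423 to 11312826, minus strand, mm9) measured 716 and 665 CPM in the wild-type pair and 869 and 873 CPM in the mutant pair. Col4a2 (chromosome 8, 11312805 to 11449287, plus strand) measured 372 and 329.9 CPM and then 439 and 426 CPM in the same order. In both genes the mutant libraries were the higher pair, by similar amounts: the log2 fold changes were 0.33 ± 0.09 (edgeR adjusted p = 0.0708) and 0.30 ± 0.09 (edgeR adjusted p = 0.0924), and DESeq2 called both (adjusted p = 0.0051 and 0.0433). The ratio of Col4a1 to Col4a2 per kilobase was 1.88 and 1.97 in the wild-type pair and 1.93 and 2.00 in the mutant pair, so it overlapped between the groups.

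Col4a3 and Col4a4 encode chains of the network known from the kidney glomerulus, and they also form part of the tubule basement membrane in the testis. Col4a3 (chromosome 1, 82583496 to 82718634, plus strand) measured 53.9 and 55.1 CPM in the wild-type pair and 32.0 and 42.3 CPM in the mutant pair. It was the only tested type IV gene whose mutant libraries were both lower, at a log2 fold change of -0.54 ± 0.14 (edgeR adjusted p = 0.0617). DESeq2 called it lower (adjusted p = 0.0411), as did edgeR without mutant replicate 2, at -0.77 (adjusted p = 0.00357). Without mutant replicate 1 it stood at -0.36 (edgeR adjusted p = 0.226). Col4a4 (chromosome 1, 82447298 to 82583424, minus strand) measured 69.3 and 93.2 CPM and then 86.4 and 95.7 CPM, with overlapping groups (0.17 ± 0.14). The ratio of Col4a3 to Col4a4 per kilobase was 0.710 and 0.539 in the wild-type pair and 0.339 and 0.404 in mutant testes, lower in both mutant libraries (exact two-sided permutation p = 0.333, the smallest possible). It was 1 of 15 level ratios computed, of which 4 were higher in both mutant libraries, 4 lower in both and 7 overlapped. For the levels of all tested genes, 28.3% were higher in both mutant libraries and 29.0% lower in both. The counts of separated ratios lie near those shares. The annotated span of a noncoding gene on the opposite strand, C430014B12Rik, overlaps that of Col4a3, introns included. Whether their exons overlap was not examined. Where exons do overlap, reads of both genes cannot be told apart without a known strand setting. In all, 16 of the 43 collagen genes overlap an annotated gene on the opposite strand by span, and the same limit holds for them. Among these are Col8a2, which was called (a gene annotated as miscellaneous RNA), Col1a1 (Gm17329), Col5a1 (2810430I11Rik and Gm13372), Col18a1 (Slc19a1), Col9a3 (Tcfl5), and Col4a1 and Col4a2 with each other. The summed Sertoli markers were lower in both mutant libraries, at 2559 and 2746 CPM in the wild-type pair and 1756 and 1832 CPM in the mutant pair. Much of that sum was Aard, at 1227 and 1584 CPM and then 646 and 748 CPM. Aard and Cldn11 were called lower, and Sox9 and Dhh were lower in both mutant libraries but not called. Amh (log2 fold change -0.02) and Fshr (0.11) overlapped between the groups. The part of Sertoli cells in the Col4a3 values was not tested.

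Col4a5 and Col4a6 are paired on the X chromosome with starts 1309 bases apart. Col4a5, the chain shared by the remaining networks, measured 133 and 123 CPM in the wild-type pair and 133 and 156 CPM in the mutant pair (log2 fold change 0.18 ± 0.10, edgeR adjusted p = 0.311). Col4a6, its partner in smooth muscle and epithelial membranes, measured 35.1 and 28.3 CPM and then 33.5 and 39.9 CPM (0.21 ± 0.15, edgeR adjusted p = 0.413). Neither was called, and wild-type replicate 1 lay close to or above mutant replicate 1 in both. Their ratio per kilobase ran from 3.86 to 4.40 with overlapping groups.

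**Figure D3:**
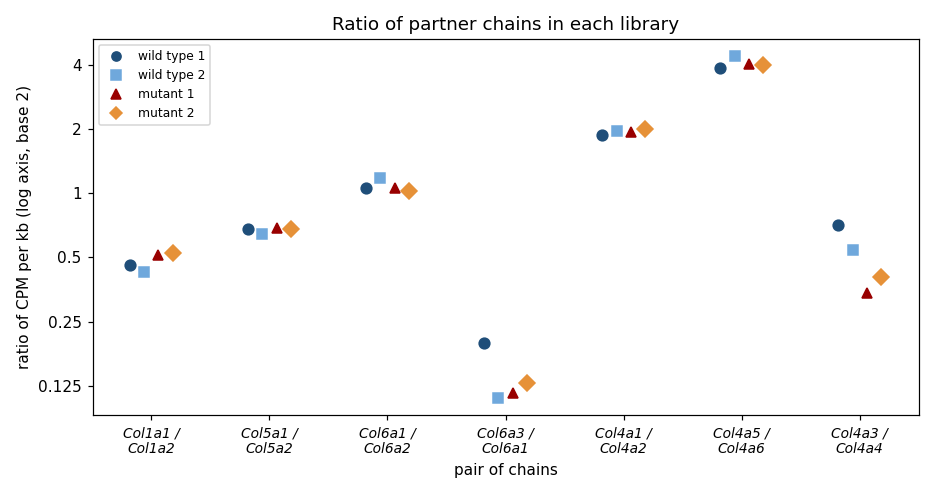
Ratio of partner chains in CPM per kilobase (y axis, log scale) in each of the 4 libraries. The ratio of Col4a3 to Col4a4 is lower in both mutant libraries, as is that of Col6a1 to Col6a2 by a small margin, Col1a1 to Col1a2 is higher in both, and the other 4 overlap between the groups.

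Type VI collagen forms beaded filaments beside cells and basement membranes, and its core chains are the products of Col6a1 and Col6a2 with another chain. Col6a1 (chromosome 10, 76171537 to 76188913, minus strand) measured 702 and 598 CPM in the wild-type pair and 1018 and 937 CPM in the mutant pair. It rose 1.5-fold (log2 fold change 0.59 ± 0.11, edgeR adjusted p = 0.0277). Its neighbour Col6a2 (chromosome 10, 76058507 to 76086375, minus strand) measured 641 and 487 CPM and then 932 and 884 CPM. It rose 1.61-fold (0.69 ± 0.13, edgeR adjusted p = 0.0296). Both mutant libraries exceeded both wild-type libraries by more than the wild-type pair differed. Col6a1 was not called when either wild-type library was left out, at 0.71 and 0.47 (edgeR adjusted p = 0.0594 and 0.0811). Col6a2 lost its call without wild-type replicate 2, at 0.50 (edgeR adjusted p = 0.0705).

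The genes of the remaining type VI chains were not called. Col6a3, the usual partner of these chains, measured 298 and 139 CPM in the wild-type pair and 250.2 and 257 CPM in the mutant pair. Wild-type replicate 1 was the highest library of the 4 and wild-type replicate 2 the lowest, so the groups overlapped (log2 fold change 0.21 ± 0.28). It was called at 0.86 without wild-type replicate 1 (edgeR adjusted p = 0.035) and stood at -0.23 without wild-type replicate 2. The alternative partner chains Col6a4, Col6a5 and Col6a6 lie side by side on chromosome 9, and they are given here because their values were seen to differ. Col6a5 measured 70.1 and 25.7 CPM in the wild-type pair and 14.7 and 36.6 CPM in the mutant pair, and on the log2 scale both pairs were further apart within a group than the groups were from each other (-0.89 ± 0.48, edgeR adjusted p = 0.286). Without mutant replicate 2 it was called lower, at -1.73 (edgeR adjusted p = 0.000793), and without wild-type replicate 1 it stood at 0.03. Col6a4 measured 34.7 and 24.5 CPM and then 18.2 and 24.6 CPM (-0.46 ± 0.21, edgeR adjusted p = 0.206), with the same highest and lowest libraries as Col6a5. Col6a6 measured 19.4 and 19.0 CPM and then 24.0 and 25.8 CPM, with both mutant libraries higher (0.38 ± 0.14, edgeR adjusted p = 0.137).

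Collagens that bind to the surface of fibrils (the FACIT group) gave 1 call among 8 tested genes (12.5%, against 3.15% of all tested genes). Col16a1 (chromosome 4, 129725084 to 129776527, plus strand), a FACIT chain that links fibrils to cells, measured 134 and 93.3 CPM in the wild-type pair and 187 and 171 CPM in the mutant pair. It rose 1.57-fold (log2 fold change 0.65 ± 0.15, edgeR adjusted p = 0.0494). It was not called with wild-type replicate 2 left out, at 0.41 (edgeR adjusted p = 0.104), nor with limma voom, the robust fit, library size alone or no filter on low counts. The following 3 genes were chosen after their values were seen. Col12a1, which lies on type I fibrils, measured 82.8 and 46.3 CPM and then 116 and 111 CPM (0.80 ± 0.22, edgeR adjusted p = 0.0682). Col14a1, a related chain, measured 130.0 and 85.9 CPM and then 151 and 182 CPM (0.62 ± 0.18, edgeR adjusted p = 0.0788). Col9a2 measured 60.1 and 43.2 CPM and then 108 and 71.2 CPM (0.78 ± 0.21, edgeR adjusted p = 0.0668). All 3 had their mutant pair above their wild-type pair, and none was called. Col12a1 was called with any library but wild-type replicate 2 left out and with the replicate block. Col9a2 was called by DESeq2 (adjusted p = 0.00313), with the replicate block and without mutant replicate 2, where its value was 1.05 (edgeR adjusted p = 3.69e-05). Without mutant replicate 1 it was 0.46 (edgeR adjusted p = 0.116). Its partners in type IX collagen, Col9a1 and Col9a3, measured 1.09 to 2.30 and 8.83 to 10.6 CPM with overlapping groups. Col20a1 and Col22a1 measured 2.04 to 4.09 CPM, and neither was called.

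Col8a2 (chromosome 4, 125964037 to 125991574, plus strand), a short-chain collagen that forms open networks, measured 84.9 and 71.9 CPM in the wild-type pair and 140.0 and 114 CPM in the mutant pair. It rose 1.62-fold (log2 fold change 0.69 ± 0.12, edgeR adjusted p = 0.0242) and was not called when either wild-type library was left out, at 0.82 and 0.58 (edgeR adjusted p = 0.0872 and 0.109). Its relative Col8a1 measured 2.84 to 4.36 CPM with overlapping groups (0.15 ± 0.30). Of the multiplexins, which join basement membranes to the matrix below, Col18a1, the gene of the endostatin precursor, measured 365 and 358 CPM in the wild-type pair and 441 and 473 CPM in the mutant pair. Its pairs were tight and separate, but the log2 fold change of 0.34 ± 0.08 was not called (edgeR adjusted p = 0.0566), though DESeq2 called it (adjusted p = 0.00831). Col15a1, the other multiplexin, measured 129 and 89.2 CPM and then 108 and 127 CPM, with overlapping groups (0.11 ± 0.16).

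The 4 transmembrane collagens, Col13a1, Col17a1, Col23a1 and Col25a1, each had both mutant libraries above both wild-type libraries (against 28.3% of all tested genes), with log2 fold changes of 0.29 to 0.73, and edgeR called none. At an unadjusted p below 0.05 there were 3 (against 12.9% of all tested genes), and DESeq2 and limma voom called 0. Col23a1 measured 54.1 and 87.8 CPM in the wild-type pair and 103 and 94.3 CPM in the mutant pair and, chosen after its value was seen, was called without wild-type replicate 2, at 0.86 (edgeR adjusted p = 0.0383). Col7a1, the anchoring fibril collagen of skin, measured 3.43 to 6.70 CPM with overlapping groups. Col10a1, Col19a1 and Col28a1 did not pass the filter. Col28a1 summed to 8 counts over the wild-type libraries and 26 over the mutant libraries, a ratio of 2.85 (exact 95% interval 1.25 to 7.29, counting error only). Col10a1, a marker of growth plate cartilage, had 3 counts in each group.

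Wild-type replicate 1 was above wild-type replicate 2 for most collagen genes. Among the 40 tested collagen genes the median log2 ratio of wild-type replicate 1 over replicate 2 was 0.26, with 30 genes higher in replicate 1. For the mutant pair that median was 0.01, with 20 genes higher in replicate 1. Over all tested genes with counts in every library both medians were 0.00. In the fibrillar class the medians were 0.50 for the wild-type pair and 0.06 for the mutant pair. None of the 6 genes that rose was called in all 4 fits that leave out 1 library. These fits differed widely in how many of all genes they called. Without wild-type replicate 1, 9 collagen genes were among the 34 genes called higher (0.225% of all tested) and 0 among the 40 called lower (0.265%). Without wild-type replicate 2, 2 were among 60 higher (0.392%) and 0 among 88 lower (0.575%). Without mutant replicate 1, 10 were among 517 higher (3.39%) and 0 among 332 lower (2.17%). Without mutant replicate 2, 10 were among 818 higher (5.43%) and 2, Col4a3 and Col6a5, among 477 lower (3.17%). In all, 26 of the 40 genes kept a positive fold change in the full fit and every one of these fits, and 3 kept a negative one. The share of all tested genes that kept their sign was not computed. These fits share libraries with the full fit, so they are not independent of it.

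**Figure D4:**
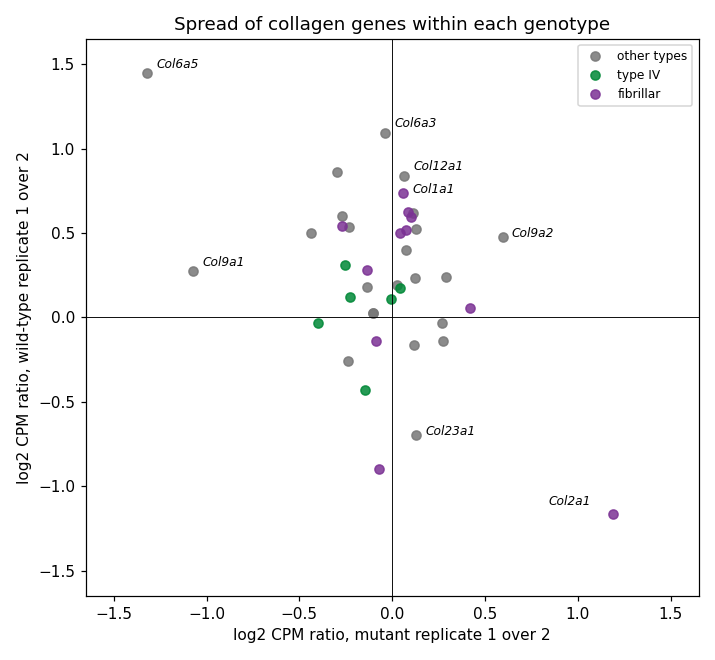
Log2 CPM ratio of replicate 1 over replicate 2 for each tested collagen gene in the wild-type group (y axis) and the mutant group (x axis). Most fibrillar points sit above 0 on the y axis and near 0 on the x axis, and Col6a5 has opposite signs in the groups.

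Genes that build, process and cross-link collagen were described from a list of hydroxylases, chaperones, proteinases and oxidases, 34 of which are in the table. Of 32 tested, 6 rose by edgeR, against 3.15% of all tested genes, and none fell, against 2.52%. This list and the receptor list below were chosen with earlier results of these data known, so such contrasts are not independent tests. None was lower at an unadjusted p below 0.05, against 12.6% of all tested genes, nor with DESeq2 or limma voom (against 2.54% and 1.84%). The median log2 fold change was 0.29. The lysyl oxidases, which cross-link collagen outside the cell, held 3 of the 6. Lox measured 125 and 106 CPM in the wild-type pair and 251 and 231 CPM in the mutant pair. It rose 2.09-fold (1.06 ± 0.10, edgeR adjusted p = 0.00513), and it was the only gene of the list called in each fit that leaves out 1 library (0.94 to 1.19). Loxl2 measured 97.6 and 79.1 CPM and then 216 and 165 CPM, and it rose 2.15-fold (edgeR adjusted p = 0.0104). Loxl1 measured 142 and 125 CPM and then 211 and 196 CPM, and it rose 1.52-fold (edgeR adjusted p = 0.0173). In all 3 oxidase genes the lower mutant library was above the higher wild-type library. The ratio of Lox to Col1a1 per kilobase was 0.131 and 0.184 in the wild-type pair and 0.203 and 0.194 in mutant testes.

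The other genes of the list that rose act inside the cell or on the procollagen ends. Creb3l1, a transcription factor of the endoplasmic reticulum that activates collagen genes in bone, measured 42.1 and 42.3 CPM in the wild-type pair and 77.5 and 68.5 CPM in the mutant pair and rose 1.73-fold (edgeR adjusted p = 0.0104). Adamts2, which removes the amino-terminal propeptide, measured 118 and 119 CPM and then 179 and 159 CPM and rose 1.43-fold (edgeR adjusted p = 0.0226). P4ha2, a prolyl hydroxylase subunit, measured 33.1 and 24.2 CPM and then 44.9 and 45.9 CPM and rose 1.57-fold (edgeR adjusted p = 0.0482), a call not made with limma voom, library size alone or no filter on low counts. Loxl1, Loxl2, Creb3l1, Adamts2 and P4ha2 were not called when either wild-type library was left out, and Adamts2 also without mutant replicate 1, so Lox was the 1 call of the list in each of the 2 fits that leave out a wild-type library. Serpinh1, the collagen chaperone, chosen after its value was seen, measured 1121 and 891 CPM and then 1082 and 1112 CPM with overlapping groups. Of 10 tested collagen receptor genes 6 had positive and 4 negative fold changes, and 2 had both mutant libraries above both wild-type libraries, a lower share than the 28.3% of all tested genes. The 1 receptor gene called (against 3.15% of all tested genes) was Ddr2. Ddr2, a receptor kinase for fibrillar collagen, rose 1.48-fold (54.4 and 62.1 CPM in the wild-type pair, 89.7 and 83.1 CPM in the mutant pair, edgeR adjusted p = 0.0251). It was not called when either wild-type library was left out. The fits without a wild-type library called few of all tested genes, as given above. In the full fit no receptor gene was lower by edgeR (against 2.52% of all tested genes), with 0 also at unadjusted p below 0.05 (against 12.6%). DESeq2 and limma voom called 0 lower as well (against 2.54% and 1.84%). Among so few genes, 0 lower calls lies near those shares.

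**Figure D5:**
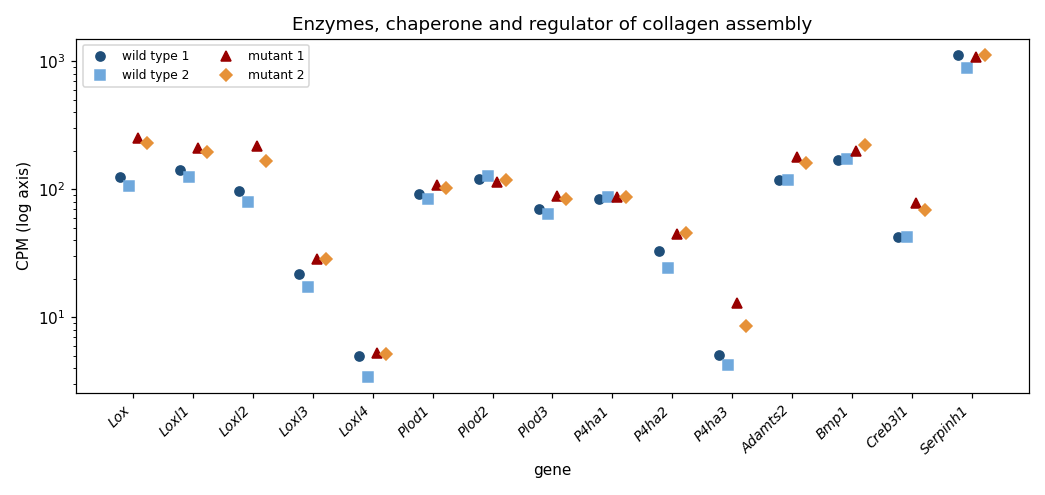
CPM (log axis) in each library for 15 genes of collagen assembly. For Lox, Loxl1 and Loxl2 both mutant libraries lie above both wild-type libraries, while Serpinh1 overlaps between the groups.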

How the data were processed

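Libraries of polyadenylated RNA were read from 1 end over 100 bases, per the labels' protocols. The submitters' processing notes name TopHat 1.4.0, CASAVA 1.8.1, HTSeq, DESeq2 and mm9 without saying what each was used for. The authors deposited 1 table of counts per gene, handled under the unit estimated counts because lines below the genes hold percentages. Its gene values are whole numbers whose sum equals the table's own total of unique reads in genes, so rounding changed nothing. Reads outside annotated genes were 13.8% to 17.3% and ambiguous reads 0.602% to 0.726% of counted reads, and both were left out. For the counting, the strand setting and annotation were not given in the sources used here.

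Counts were tested with edgeR 4.0.16 (R 4.3.3; quasi-likelihood F test, genotype alone, TMM normalisation, legacy and robust options off). The default filter (minimum count 10, minimum total 15) left 14788 genes. Two-sided p-values received Benjamini-Hochberg adjustment across the 14788 genes with a threshold of 0.05, and each SE was obtained as the log2 fold change over the root of F. CPM uses TMM-adjusted library sizes. With 2 libraries per group, leaving 1 out assumes that the lone library varies like the remaining pair. Alternatives were DESeq2 1.42.0, limma 3.58.1 voom, other normalisations and filters, a replicate block and each library left out. Members and lists were chosen with earlier results of these data known. Named genes are the called members, the 4 most abundant per class and their partner chains, and up to 6 called genes of the biosynthesis and receptor lists.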

Additional observations from a re-analysis of the deposited data

How the results depend on the processing

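Of 272 values of single named collagen genes under other settings, 231 kept their direction and side of the threshold, 16 lost a call, 20 gained one and 5 changed sign. Sign changes, in genes not called in the full fit, were Col4a4 (-0.036) and Col2a1 (-0.26) without wild-type replicate 1, Col6a3 (-0.23) and Col8a1 (-0.091) without wild-type replicate 2, and Col2a1 (-0.34) without mutant replicate 1. Leaving out each library in turn gave -0.036 to 0.39 for Col4a4, -0.23 to 0.86 for Col6a3, -0.091 to 0.52 for Col8a1 and -0.34 to 0.89 for Col2a1. DESeq2 called 11 collagen genes higher and 1 lower. Leaving out 1 library gave 2 to 10 collagen genes higher and 0 to 2 lower, 1 to 8 biosynthesis genes higher, 0 to 1 receptor genes higher, and fibrillar medians of 0.39 to 0.78. The low ends of the biosynthesis and receptor ranges came from the fits without a wild-type library. Those fits also called far smaller shares of all tested genes than the fits without a mutant library, as given with the collagen counts above. The drop therefore cannot be read as a property of these lists. With the replicate number as a block, edgeR called 9 collagen genes higher and 0 lower, 7 biosynthesis genes and 1 receptor gene higher. Over all genes that fit called 512 higher and 338 lower, against 466 and 373 in the main fit. Same-numbered libraries did not deviate together (correlation -0.03 over 14788 genes), so the numbers were not taken as pairs. Other settings left 4 to 7 collagen genes called higher and 0 lower. Over all genes these settings called 282 to 496 higher and 219 to 392 lower. The fit without the filter on low counts gave both the 4 and the 282. The cause of these changes was not tested. The low counts of Col2a1, Col10a1, Col19a1 and Col28a1 limit what can be read from them.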
